A study of Homo sapiens with 6 samples.

Results

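The NRF2 antioxidant response genes were examined in Hep3B cells. They are the activator *NFE2L2*, its inhibitor *KEAP1* and 8 target genes of the pathway, *GCLC*, *GCLM*, *TXN*, *TXNRD1*, *SRXN1*, *ME1*, *HMOX1* and *OSGIN1*. These 10 genes were taken by symbol from the 23228 genes of the count tables, and 10 of 10 were among the 14537 genes with enough reads for the test.

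NRF2, the protein of *NFE2L2*, is a transcription factor that KEAP1 holds in the cytoplasm and hands to a CUL3 ubiquitin ligase for breakdown. Oxidants and electrophiles modify cysteines of KEAP1, after which NRF2 builds up, enters the nucleus, pairs with a small MAF protein and binds antioxidant response elements. Its targets make glutathione, reduce thioredoxin, break down heme, supply NADPH and detoxify foreign compounds, and mutations of *NFE2L2* or *KEAP1* occur in hepatocellular carcinoma. NRF2 is controlled largely at the protein level, which RNA sequencing does not measure.

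Hep3B is a long-used line of cells from a human hepatocellular carcinoma. The series held 3 control libraries, of cells given a lentiviral non-targeting shRNA, and 3 libraries labelled PELP1-KD, of cells given a lentiviral shRNA against *PELP1*, a coregulator of nuclear receptors. Cells of both groups were grown in RPMI, and the PELP1-KD cells were selected with puromycin and used as pooled clones. Sample titles point to shRNA 1 but the protocol lists a pair of PELP1 shRNAs, so the one used is uncertain, and no time after infection is given. Nothing in the labels says that the replicates were separate cultures, so the p values measure the spread between these libraries, which may be technical.

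*PELP1*, the targeted gene, had 4893, 4914 and 5102 normalized reads in control replicates 1 to 3 and 4421, 4825 and 4840 in PELP1-KD replicates 1 to 3. Normalized reads are reads scaled to a common library size. Its log2 fold change was -0.08 (SE 0.04, edgeR adjusted p = 0.101), a mean of 94.5% of control. The PELP1-KD libraries lay below the controls but the change did not pass the test, so the groups are called here by their labels. When the replicate number was fitted as a block, the edgeR adjusted p of *PELP1* was 0.0106. The libraries held 26758363 to 34456542 reads on genes. Hepatocyte markers were abundant, with a summed 12406 to 12593 RPKM in control and 10828 to 10967 in PELP1-KD libraries (RPKM, reads per kilobase of exon and per 1e6 library reads). In PELP1-KD, 9 of the 12 hepatocyte markers were called lower and 3 higher (edgeR adjusted p below 0.05). Of all tested genes, 26.8% were called lower and 26.8% higher, shares that also stand beside the marker counts below. The log2 fold changes of the hepatocyte markers ran from -3.03 (*AHSG*) to 0.62 (*AFP*). Of other cell types, the endothelial markers *CDH5*, *KDR* and *TEK*, the leukocyte marker *MS4A1* and the fibroblast marker *THY1* were at 0 in every library. The summed RPKM of the 6 fibroblast markers was 10.5 to 11.5 in control and 16.4 to 16.7 in PELP1-KD libraries (2 called higher and 2 lower of 4 tested), that of the 5 endothelial markers 0.45 to 0.51 and 0.434 to 0.479, and that of the 6 leukocyte markers 25.1 to 28.2 and 33.4 to 35.9 (1 called higher and 1 lower of 2 tested). Their part in the results was not tested.

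Short sequences that match the core of the antioxidant response element, the element that NRF2 is known to bind, are shown. Whether NRF2 binds at these places was not measured. The core searched was TGACNNNGC, on both strands, in RefSeq promoter windows of 300 bases (250 before and 50 after a start site, from a GRCh38 table). Of the members, 9 had a window and *HMOX1* had none. The 12 member windows were each found exactly once in GRCh37, the build of hg19, whose coordinates are given. A match lay in 4 of 9 member genes, beside 16.1% of 27305 genes and 13.3% of 35116 windows in the table. Capitals mark the core, and each sequence is printed 5′ to 3′ on the strand that carries it.

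GCLM, chr1:94375002-94375030, plus strand: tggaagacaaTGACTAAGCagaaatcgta
KEAP1, chr19:10613460-10613488, plus strand: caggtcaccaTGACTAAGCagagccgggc
KEAP1, chr19:10613483-10613511, minus strand: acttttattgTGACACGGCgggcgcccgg
ME1, chr6:84140889-84140917, minus strand: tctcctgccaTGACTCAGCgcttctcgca
TXNRD1, chr12:104609448-104609476, plus strand: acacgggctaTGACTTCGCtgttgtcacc
TXNRD1, chr12:104680698-104680726, minus strand: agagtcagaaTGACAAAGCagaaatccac

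The *GCLM* and the first *KEAP1* sequences share the run ATGACTAAGCAGA, which 3 windows of 3 genes in the table hold. The *ME1* match overlaps TGANTCA, the core that AP-1 is known to bind, which 7.71% of all windows hold. The first *TXNRD1* match begins 99 bases before the start site and lies upstream of the gene, and the second is in an intron. The first *KEAP1* match and that of *ME1* lie in exons of the tables, the second of *KEAP1* in an intron, and that of *GCLM* reaches the gene's first exon by 1 base. One further match each in the windows of *ME1* and *TXNRD1* is not printed. The windows of *NFE2L2*, *GCLC*, *TXN*, *SRXN1* and *OSGIN1* held no match, which says only that these letters are not in these windows. Elements that lie farther from the start site were not searched.

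The 250 bases before the first *TXNRD1* start site, chr12:104609307-104609556 on the plus strand, place its match in context.

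TXNRD1 upstream: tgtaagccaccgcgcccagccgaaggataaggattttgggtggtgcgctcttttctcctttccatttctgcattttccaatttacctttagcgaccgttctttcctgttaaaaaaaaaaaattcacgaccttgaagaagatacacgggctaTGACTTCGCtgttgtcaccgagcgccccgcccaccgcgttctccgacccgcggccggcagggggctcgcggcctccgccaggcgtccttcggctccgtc

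Most target genes were higher in PELP1-KD libraries, while the activator, the inhibitor and *GCLC* were lower. By edgeR's quasi-likelihood test, with an adjusted p below 0.05 over all tested genes, 6 of 10 members rose, 3 fell and 1, *GCLM*, did not pass. Of all tested genes 53.6% were called, with 26.8% higher and 26.8% lower. No member reached a 2-fold change, which 7.65% of tested genes did (2.85% higher and 4.79% lower). The groups did not overlap for 9 members, 6 with PELP1-KD above and 3 below, where 58.8% of tested genes did not overlap (29.5% with PELP1-KD above and 29.3% below). The members' median log2 fold change was 0.21, beside 0.004 over all tested genes, and their median absolute log2 fold change was 0.23, beside 0.20. The members were chosen with earlier results of these data known, so these comparisons set a chosen list beside all tested genes. In bulk RNA, fewer cells that express a gene and less RNA per cell cannot be told apart.

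**Figure D1:**
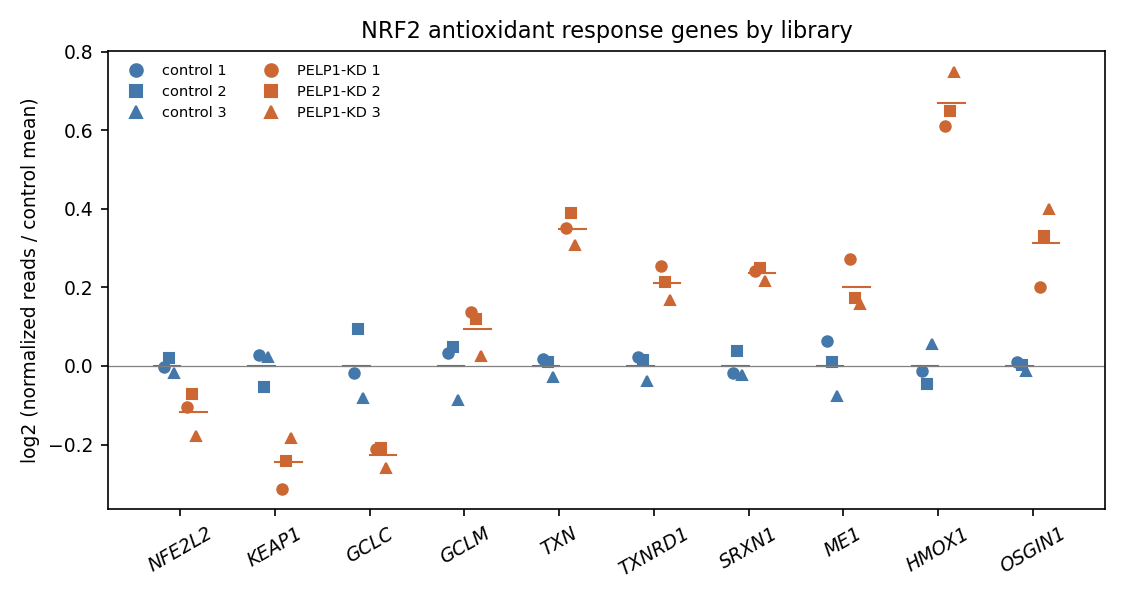
Normalized reads of each member in each library, as the log2 of the ratio to the control mean (y axis), with genes on the x axis, control libraries in blue, PELP1-KD libraries in orange, a symbol per replicate number and bars at the group means. The 3 PELP1-KD libraries lie above the controls for 6 genes, with the largest shift for *HMOX1*, and below them for *NFE2L2*, *KEAP1* and *GCLC*.

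*NFE2L2* (hg19, chromosome 2, 178095033 to 178129859, minus strand) encodes NRF2 itself. It had 6639, 6740 and 6574 normalized reads in control replicates 1 to 3 and 6189, 6334 and 5877 in PELP1-KD replicates 1 to 3. Each PELP1-KD library was below each control library, and the gap between the groups was small. The log2 fold change was -0.12 (SE 0.04, 95% CI -0.19 to -0.04, edgeR adjusted p = 0.0115), a mean of 92.2% of control. The call was lost without control replicate 2, where the log2 fold change was -0.108 and the edgeR adjusted p was 0.0613.

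*KEAP1* (chromosome 19, 10596796 to 10614054, minus strand), the inhibitor, had 3734, 3528 and 3717 normalized reads in control and 2948, 3094 and 3225 in PELP1-KD libraries. The groups did not overlap, and PELP1-KD replicate 3 came nearest to the controls. It fell by 0.24 on the log2 scale (SE 0.04, edgeR adjusted p = 7.62e-05) to 84.4% of control. The ratio of *NFE2L2* to *KEAP1*, as RPKM, was 1.44, 1.54 and 1.43 in control and 1.7, 1.66 and 1.47 in PELP1-KD libraries, and the groups overlapped. The mean log2 ratio differed by 0.13 (two-sided exact permutation p = 0.2, where 3 libraries against 3 allow no p below 0.1).

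*GCLC* and *GCLM* encode the catalytic and the modifier subunit of glutamate-cysteine ligase, the rate-limiting enzyme of glutathione synthesis. *GCLC* (chromosome 6, 53362140 to 53409927, minus strand) had 1101, 1190 and 1054 normalized reads in control and 963, 964 and 931 in PELP1-KD libraries. *GCLM* (chromosome 1, 94352590 to 94375012, minus strand) had 2081, 2102 and 1914 in control and 2237, 2208 and 2068 in PELP1-KD libraries. The 2 subunits thus had fold changes of opposite sign, without overlap of the groups for *GCLC* and with overlap for *GCLM*. The log2 fold change of *GCLC* was -0.23 (SE 0.06, edgeR adjusted p = 0.00186) and that of *GCLM* was 0.09 (SE 0.05, 95% CI -0.01 to 0.19, edgeR adjusted p = 0.103). *GCLM* passed with the replicate number as a block (edgeR adjusted p = 0.0118), where 60.7% of tested genes were called and 30.4% were called higher, and without PELP1-KD replicate 3 (log2 fold change 0.130, edgeR adjusted p = 0.0135). Without control replicate 3 its log2 fold change was 0.057 (edgeR adjusted p = 0.373).

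Within a library, *GCLM* RPKM was 2.34, 2.19 and 2.25 times that of *GCLC* in control and 2.88, 2.84 and 2.75 times in PELP1-KD libraries. The ratio was higher in each PELP1-KD library than in each control, with a mean log2 difference of 0.32 (two-sided exact permutation p = 0.1, the smallest that 3 libraries against 3 allow).

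*TXN*, *TXNRD1* and *SRXN1* encode thioredoxin, the cytosolic reductase that recharges it with NADPH, and sulfiredoxin, which restores overoxidized peroxiredoxins. *TXN* (chromosome 9, 113006310 to 113018778, minus strand) had 7777, 7738 and 7538 normalized reads in control and 9800, 10056 and 9506 in PELP1-KD libraries. *TXNRD1* (chromosome 12, 104609559 to 104744062, plus strand) had 21533, 21402 and 20655 in control and 25269, 24574 and 23818 in PELP1-KD libraries. Both groups were tight and well apart for each gene. *SRXN1* (chromosome 20, 627268 to 633890, minus strand) had 3656, 3800 and 3642 in control and 4374, 4394 and 4299 in PELP1-KD libraries, again without overlap. The log2 fold changes were 0.35 for *TXN* (SE 0.03, edgeR adjusted p = 4.83e-08), 0.21 for *TXNRD1* (SE 0.03, edgeR adjusted p = 1.13e-05) and 0.24 for *SRXN1* (SE 0.04, edgeR adjusted p = 2.77e-05).

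The ratio of *TXNRD1* to *TXN*, as RPKM, was 0.332, 0.332 and 0.329 in control and 0.309, 0.293 and 0.301 in PELP1-KD libraries. It was lower in each PELP1-KD library, with a mean log2 difference of -0.14 (two-sided exact permutation p = 0.1, again the smallest possible), so *TXN* had the larger rise of the pair.

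**Figure D2:**
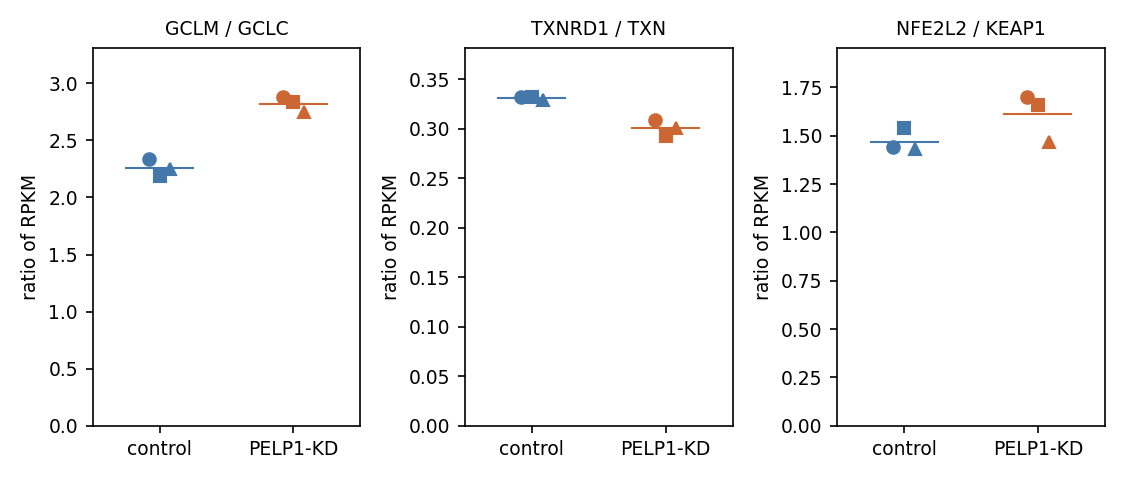
Ratio of RPKM within each library (y axis, from 0) for 3 pairs of members, by group (x axis), with control in blue, PELP1-KD in orange, a symbol per replicate number and bars at the means. The groups are apart for *GCLM* to *GCLC* (means 2.26 and 2.82) and *TXNRD1* to *TXN* (0.331 and 0.301), and overlap for *NFE2L2* to *KEAP1*.

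*ME1* (chromosome 6, 83920110 to 84140938, minus strand) encodes the cytosolic malic enzyme, which makes NADPH. It had 1916, 1849 and 1740 normalized reads in control and 2214, 2069 and 2047 in PELP1-KD libraries. The groups did not overlap, and the log2 fold change was 0.20 (SE 0.05, edgeR adjusted p = 0.00154).

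*HMOX1* (chromosome 22, 35777060 to 35790207, plus strand) encodes heme oxygenase 1, which opens the heme ring and releases iron, carbon monoxide and biliverdin. It had 3024, 2956 and 3170 normalized reads in control and 4654, 4779 and 5126 in PELP1-KD libraries. Of the members it moved most, with a log2 fold change of 0.67 (SE 0.04, 95% CI 0.58 to 0.76, edgeR adjusted p = 1.09e-10) and a mean of 159% of control. A larger absolute log2 fold change was found in 13.4% of tested genes. *HMOX1* is also a known target of other factors, among them BACH1, which represses it. *BACH1*, looked at after its value was seen, was called lower, with overlap of the groups. Its log2 fold change was -0.14 (SE 0.05, edgeR adjusted p = 0.0227). Any part of *BACH1* in the value of *HMOX1* was not tested.

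*OSGIN1* (chromosome 16, 83982672 to 83999937, plus strand) encodes an oxidative stress induced growth inhibitor. It had 1467, 1457 and 1443 normalized reads in control and 1673, 1831 and 1919 in PELP1-KD libraries. The PELP1-KD libraries were the more spread, with a coefficient of variation of 6.89% against 0.809% in control, and did not overlap the controls. The log2 fold change was 0.31 (SE 0.05, edgeR adjusted p = 3.75e-05).

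Per kilobase of exon, the members spanned a 51.7-fold range of mean RPKM in control libraries. *TXN* was highest at 481 ± 8.04 (SD, n = 3), followed by *TXNRD1* at 159 ± 3.56, *NFE2L2* at 63.4 ± 0.794, *HMOX1* at 61 ± 2.19 and *SRXN1* at 45.9 ± 1.09. Below them were *KEAP1* at 43.1 ± 1.35, *GCLM* at 21 ± 1.07, *OSGIN1* at 18.2 ± 0.147, *ME1* at 16.6 ± 0.803 and *GCLC* at 9.31 ± 0.578. Of neighbours in this order, the control ranges overlapped for *NFE2L2* with *HMOX1* alone. In PELP1-KD libraries *HMOX1* (97.1 ± 4.89 RPKM) stood above *NFE2L2* (58.4 ± 2.22), and the mean of *OSGIN1* (22.6 ± 1.56) was close to that of *GCLM* (22.5 ± 0.937). The summed RPKM of the 10 members was 905 to 929 in control and 1096 to 1134 in PELP1-KD libraries. *TXN* was the largest part of this sum, with a mean of 481 RPKM in control and 613 in PELP1-KD libraries, and 3 members fell.

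**Figure D3:**
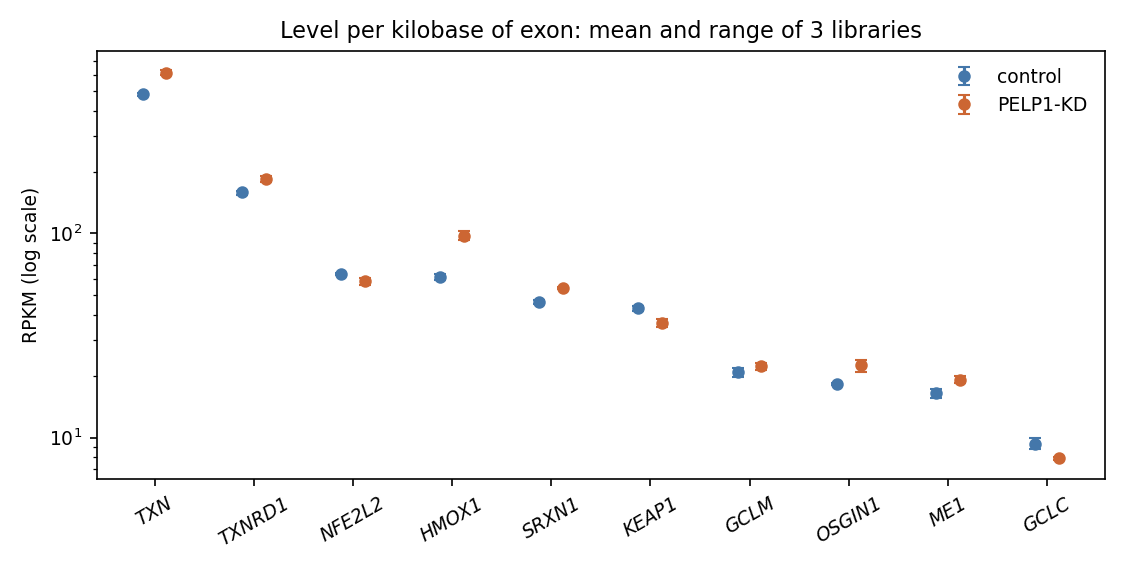
RPKM of each member on a log axis (y), with genes in the order of their control level (x), control in blue and PELP1-KD in orange. Points are means of 3 libraries and bars their range. *TXN* is highest (481 and 613) and *GCLC* lowest (9.31 and 7.95) in both groups.

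The other genes of the pathway, 94 of 95 of which were tested, moved both ways. By edgeR 34 were called higher, 33 lower and 27 were not called, with a median log2 fold change of 0.00. That is 71.3% called, beside 53.6% of all tested genes (26.8% higher and 26.8% lower), shares that also stand beside each list below. Thus the 6 members that rose stood among pathway genes that were called in either direction about equally often.

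**Figure D4:**
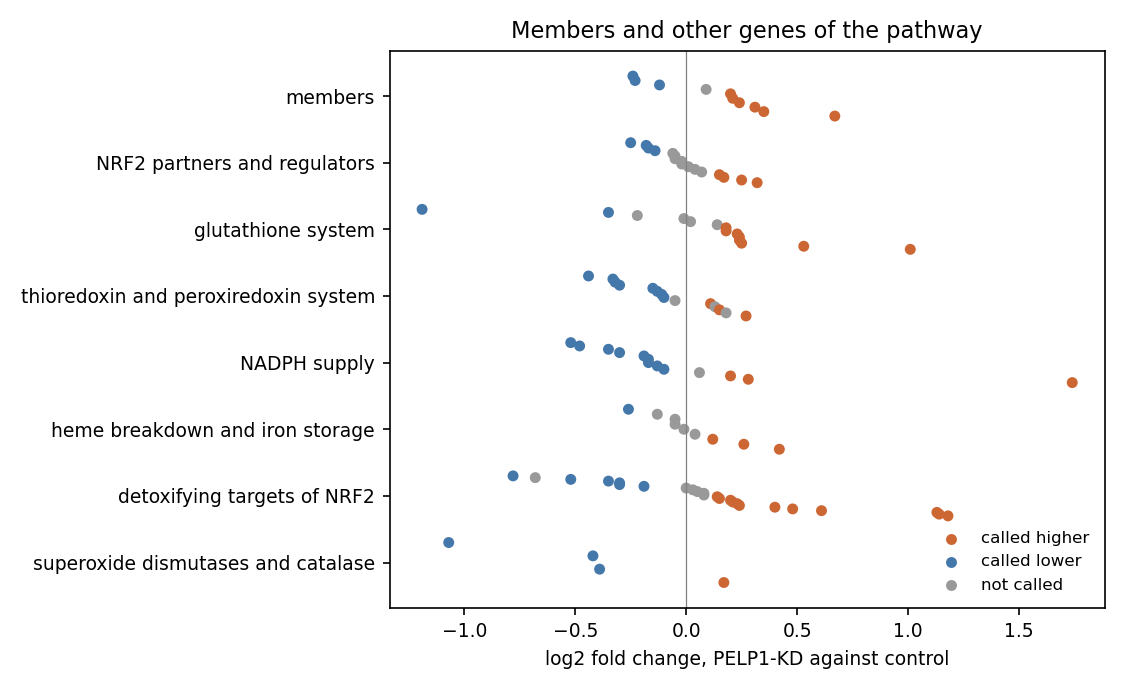
Log2 fold change of PELP1-KD against control (x axis) for each tested gene of the members and of 7 other lists of the pathway (y axis), a point per gene, ordered by value within a list. Genes called higher are orange, called lower blue and not called grey, and points lie on both sides of 0 in each list.

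Of 16 partners and regulators of NRF2, 4 rose, 4 fell and 8 were not called (median log2 fold change -0.02). *SQSTM1*, whose protein p62 binds KEAP1 and takes it to autophagy, rose (0.32, SE 0.03), as did *NFE2L3*, a relative of *NFE2L2* (0.25, SE 0.04), and *DPP3*, a KEAP1-binding peptidase (0.17, SE 0.03). *CUL3*, the scaffold of the ligase that uses KEAP1, fell by 0.18 (SE 0.04), *MAFF*, a small MAF partner, by 0.17 (SE 0.05) and *PGAM5*, a mitochondrial phosphatase that binds KEAP1, by 0.25 (SE 0.04). Of the other small MAF genes, looked at after their values were seen, *MAFG* rose by 0.15 (SE 0.04, edgeR adjusted p = 0.00695) and *MAFK* had -0.06 (SE 0.04, edgeR adjusted p = 0.273).

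Of 14 other genes of the glutathione system, 8 rose, 2 fell and 4 were not called (median log2 fold change 0.18). *GPX2*, a glutathione peroxidase, rose from 3478, 3604 and 3592 normalized reads in control to 7079, 7070 and 7407 (log2 fold change 1.01, SE 0.04, edgeR adjusted p = 1.60e-14). *GLRX*, a glutaredoxin, rose by 0.53 (SE 0.07) and *GSR*, glutathione reductase, by 0.24 (SE 0.03). The genes that fell were *CHAC1*, which degrades glutathione (-1.19, SE 0.11), and *SLC7A11*, the cystine transporter (-0.35, SE 0.08). Both are also known targets of ATF4.

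Of 14 other thioredoxin and peroxiredoxin genes, 3 rose, 8 fell and 3 were not called, with a median log2 fold change of -0.11, so most of this list went against *TXN*, *TXNRD1* and *SRXN1*. *PRDX6* fell by 0.32 (SE 0.03), *PRDX4* by 0.30 (SE 0.04) and *TXNRD3*, a further reductase, by 0.44 (SE 0.08). *SESN2*, a sestrin, rose by 0.27 (SE 0.06). The calls of *PRDX5* (0.11, SE 0.04) and mitochondrial *TXNRD2* (0.15, SE 0.06) were lost when single libraries were left out, for example without control replicate 1 (edgeR adjusted p = 0.0558 and 0.191). With DESeq2 the call of *TXNRD2* was lost as well (DESeq2 adjusted p = 0.069).

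Of 13 other genes that supply NADPH, 9 fell, 3 rose and 1 was not called (median log2 fold change -0.17), against the rise of *ME1*. *IDH2* fell by 0.52 (SE 0.04) and *MTHFD2* by 0.48 (SE 0.05), both of which encode mitochondrial enzymes. The mitochondrial malic enzymes *ME3* and *ME2* rose, by 1.74 (SE 0.13) and 0.28 (SE 0.05), and *PGD*, an enzyme of the pentose phosphate pathway, by 0.20 (SE 0.03). Other genes of that pathway, looked at after their values were seen, were called lower. They were *PGLS* (-0.13, SE 0.05), *TKT* (-0.17, SE 0.04) and *TALDO1* (-0.10, SE 0.04). *ME3* was low, with 52.7 to 61.4 normalized reads in control and 183 to 215 in PELP1-KD libraries.

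Of 9 other genes of heme breakdown and iron storage, 3 rose, 1 fell and 5 were not called (median log2 fold change -0.01). *BLVRA* and *BLVRB*, the biliverdin reductases that act after heme oxygenase, rose by 0.42 (SE 0.06) and 0.26 (SE 0.04), and the ferritin gene *FTH1* by 0.12 (SE 0.03). *SLC40A1*, the iron exporter ferroportin, fell by 0.26 (SE 0.04).

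Of 24 tested detoxifying targets, 12 rose, 6 fell and 6 were not called (median log2 fold change 0.11). *NQO1*, a quinone reductase often used as a readout of NRF2, had 171, 195 and 167 normalized reads in control and 253, 258 and 302 in PELP1-KD libraries (log2 fold change 0.61, SE 0.10, edgeR adjusted p = 4.26e-05). *PTGR1*, prostaglandin reductase 1, rose by 1.14 (SE 0.04). *AKR1B10* rose by 1.18 (SE 0.28) from 12.4 to 20.1 normalized reads in control, and *TRIM16* by 1.13 (SE 0.08). *GSTM3* fell by 0.78 (SE 0.07) and the transporter *ABCC1* by 0.35 (SE 0.05). *AKR1B10*, *GSTM3*, *TRIM16* and *TRIM16L* (-0.52, SE 0.20) have relatives in the same gene families. Reads that matched more than one place were counted as fractions, so their values may be less certain. Of the members, all but *ME1* also had a value that was not a whole number in at least 1 library. For *NFE2L2*, *TXNRD1* and *TXN* this was so in 4 libraries. How many reads of any of these genes were shared was not measured. The call of *TRIM16L* was lost with DESeq2 (DESeq2 adjusted p = 0.0672). It was also lost without control replicate 1, where its log2 fold change was -0.277.

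Superoxide dismutases and catalase, which are not all classed as NRF2 targets, mostly fell. *CAT* fell by 0.42 (SE 0.04), *SOD1* by 0.39 (SE 0.04) and *SOD3* by 1.07 (SE 0.16), while mitochondrial *SOD2* rose by 0.17 (SE 0.03).

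The place of the members in the genome was described by the tested genes that start within 1 Mb. Beside these counts, 26.8% of all tested genes were called higher and 26.8% lower. Around *GCLC*, 7 of 11 neighbours were called lower and 2 higher, with a median log2 fold change of -0.22 close to the -0.23 of *GCLC*. Around *HMOX1*, 7 of 10 were called higher and 2 lower (median 0.39), among them the apolipoprotein L genes *APOL1* (2.54), *APOL6* (1.10) and *APOL2* (0.72), while *MCM5*, the nearest gene downstream, fell by 0.34. Within 5 Mb of *HMOX1* the median was 0.11, with 47 of 110 neighbours called higher and 25 lower. Around *KEAP1*, 22 of 59 were called lower and 5 higher (median -0.12). *ME1* lay above 8 of its 9 neighbours, of which 3 were called lower and the other 6 were not called (median -0.13). Around the other members the median lay between -0.05 and 0.09. The part of these neighbourhoods in the members' values was not tested.

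**Figure D5:**
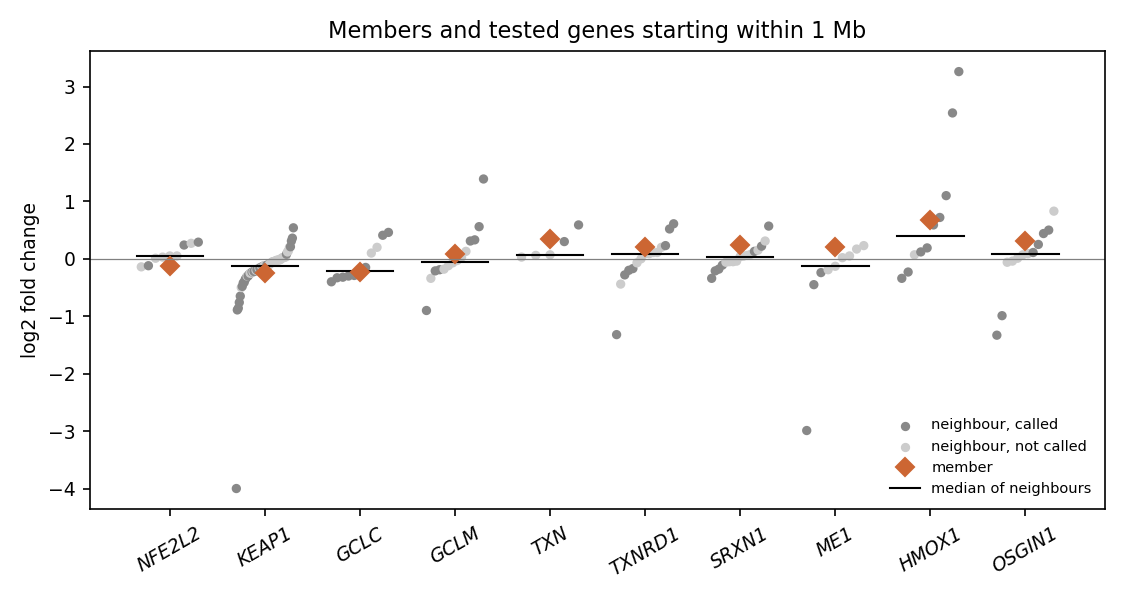
Log2 fold change (y axis) of each member (orange diamond) and of the tested genes that start within 1 Mb of it (dark grey where called, light grey where not), with the median of the neighbours as a black bar. *GCLC* lies at the median of its neighbours (-0.22) and *ME1* above 8 of its 9 neighbours.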

How the data were processed

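RNA-seq of 3 control and 3 PELP1-KD libraries was analysed, grouped by their labels. The authors deposited estimated counts per gene from featureCounts 1.5.0-p1 (hg19, stranded, mapping quality of at least 2, multiply matched reads shared as fractions). The paper's methods name TopHat2 and HTSeq, and the processing notes HISAT2. The labels conflict on RNA extraction, mRNA selection or ribosomal RNA removal, and single or paired reads. The deposited exon lengths in bases gave RPKM.

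Counts were rounded and fitted with edgeR 4.0.16 in R 4.3.3 (TMM, filterByExpr, glmQLFit robust, glmQLFTest), with Benjamini-Hochberg adjustment over 14537 genes. Dividing the size of a log2 fold change by the root of its F statistic gave the SE. The median SE was 0.063. Members and lists were chosen with earlier results of these data known. Named were all members, *PELP1*, up to 3 called genes per pathway list and direction, and *NQO1* and *SLC7A11*; some items are not reported here; genes near a member were named after their values were seen. For 2 members, the 3 genes with the most similar profile were named, and up to 2 per direction of the ATF4, AHR and heat shock lists. Alternatives included DESeq2 1.42.0. The fits were also run on simulated counts with known fold changes. Far fewer genes changed there than were called here, so that run does not check the calls at such a share.

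Same-numbered libraries deviated together from their group means (r = 0.336, 0.247 and 0.666 across 6370 genes, which are not independent). Control replicate 2 with PELP1-KD replicate 1 gave 0.418, and control replicate 1 with PELP1-KD replicate 2 gave 0.244. These values therefore do not settle the pairing of numbers 1 and 2. The replicate block took the numbers as pairs, while the main test used no pairing. Replicates differed by more than sampling noise.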

Additional observations from a re-analysis of the deposited data

How the results depend on the processing

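The alternatives were 3 other scalings, DESeq2, 2 other filters on low counts, an adjusted p below 0.01, the replicate block, and each library left out. With other scalings the median log2 fold change over all tested genes was 0 to 0.021, against 0.004 in the main test. Across the settings that kept an adjusted p below 0.05, 6766 (without control replicate 2) to 8828 genes (replicate block) were called, against 7788. With the block, pairing libraries by number, *PELP1* had a log2 fold change of -0.083 (edgeR adjusted p = 0.0106), *NFE2L2* had -0.118 (0.000139) and *GCLM* passed at 0.096 (0.0118). No other member's call changed with it, and the exact p of the ratios with 3 pairs cannot go below 0.25. Leaving out single libraries gave *PELP1* log2 fold changes from -0.105 to -0.040, with a call without PELP1-KD replicate 3. *NFE2L2* also missed an adjusted p below 0.01. With 5 Mb on each side, the neighbours' median moved to 0.119 for *GCLM*, 0.112 for *HMOX1* and 0.112 for *TXN*. The direction of *PELP1*, the members and the named genes of the pathway lists reversed under none of these alternatives. Direction was not compared across them for *MAFG*, *MAFK*, *BACH1*, *PGLS*, *TKT* or *TALDO1*. Nor was it compared for the cell type markers, the neighbours, the genes of the other stress responses or those with similar profiles. Depth did not limit the members, the lowest of which, *GCLC* in PELP1-KD replicate 3, had 931 normalized reads.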

Other observations

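Other stress responses were described with the same test, by which 26.8% of all tested genes were called higher and 26.8% lower. Of 8 heat shock genes, 5 fell and 3 were not called by edgeR, and *HSPH1* (-0.94, SE 0.04) and *HSPB1* (-0.64, SE 0.04) had the smallest p. Of 10 genes in the ATF4 list, 6 fell and 3 rose. The list holds *ATF4* itself, which was called lower (-0.10, SE 0.04). *PSAT1* (-0.57, SE 0.04) and *DDIT4* (-0.34, SE 0.06) were lower, and *CEBPB* (0.58, SE 0.04) and *PPP1R15A* (0.32, SE 0.04) higher. Of 6 tested genes of the aryl hydrocarbon receptor battery, which shares targets such as *NQO1* with NRF2, 3 rose and 2 fell. *CYP1B1* rose by 3.38 (SE 0.07) and *CYP1A1* by 2.05 (SE 0.04), while *ARNT* fell by 0.13 (SE 0.05) and *AHRR* by 0.23 (SE 0.09).

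Over the 6 libraries, the genes whose log2 normalized reads were most like those of *HMOX1* were *JUP*, *CASZ1* and *P4HA2* (root mean square log2 differences of 0.014, 0.022 and 0.029), and those most like *NFE2L2* were *CTSC*, *TMCO1* and *FIGNL1* (0.010, 0.015 and 0.015), among 11769 genes.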
